A study of Mus musculus with 7 samples.

Results

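The laminin and integrin genes were taken as all probes, control spots left out, whose gene name in the scanner files was that of a laminin alpha, beta or gamma chain (Lama, Lamb or Lamc and a digit) or began with Itga or Itgb. This gave 42 of the 37074 gene names of the array, measured by 100 of its 56605 probes. The rule used gene names and no measured value. The glands came from adult nulliparous FVB mice of 20 to 25 weeks in diestrus, and 1 abdominal gland per mouse was taken after its lymph node had been removed. The 4 PRA transgenic mice carried extra A form of the progesterone receptor through 2 transgenes, a GAL-4 activator driven by a cytomegalovirus promoter and a UAS target holding PR-A, and the other 3 mice were wild-type. Gland RNA, 1 animal per array, was labeled with Cy5 and hybridized beside the same Cy3-labeled mouse reference RNA, a pool from cell lines, so that each value is the log2 ratio of gland to reference signal for that probe. Values are given below in the order of replicates, wild-type 1 to 3 and then PRA transgenic 1 to 4.

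Laminins are cross-shaped trimers of 1 alpha, 1 beta and 1 gamma chain that build the basement membrane around mammary ducts, alveoli, vessels, fat cells and muscle fibers. Integrins are pairs of 1 alpha and 1 beta chain that span the cell membrane and bind laminin, collagen, fibronectin or other cells outside and the cytoskeleton inside. In the mammary epithelium, the laminin of hemidesmosomes (with the chains of Lama3 and Lamb3) and its receptor integrin alpha6 beta4 form the junction by which basal cells hold on to the basement membrane.

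The slide was the same for all 7 arrays, but its row 1 held every wild-type and its row 2 every PRA transgenic array, and row and genotype cannot be told apart. The share of probe spots well above background was 64.34 to 67.69% in wild-type and 58.61 to 62.03% in PRA transgenic arrays for Cy5, and 55.31 to 56.03% and 49.53 to 52.79% for the Cy3 reference, which is the same RNA throughout. Saturated spots were absent, and precision is limited by how many arrays there are. Of the 100 laminin and integrin probes, 77 (77%) were kept, against 60.6% of all probes, because in 1 genotype or both every array had a Cy5 signal that the scanner software marked as well above background. The 4 genes with no kept probe were Itga2, Itgad, Itgb2l and Itgb1bp2. In whole glands, fewer cells of a type and less RNA per cell cannot be told apart.

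The probes of a gene differ in sequence and place, and for Lamb3 and Itgb1 these are given first. Whether sequence or place bears on their values was not tested. The probes are 60 bases long, are read here from the scanner files in their 5′ to 3′ direction, and are placed by those files on mm9. The first Lamb3 probe lies on chromosome 1 at chr1:195167088-195169619 of the plus strand and spans an intron. The second lies at chr1:195170009-195170068, the most 3′ of the Lamb3 probes, and is called the 3′ end probe below. Capitals mark the sequence AATAAA in its first 30 bases, and whether it serves as a polyadenylation signal was not tested. The first 30 bases are also shown for the third, at chr1:195106618-195106677. Both Itgb1 probes span introns on the plus strand of chromosome 8, at chr8:131250081-131255976 and chr8:131250931-131255949, and the capitals mark the 23 bases that are their longest shared stretch. The deposited description of the latter names the beta1D form, the splice form of striated muscle.
Lamb3 A_51_P223656: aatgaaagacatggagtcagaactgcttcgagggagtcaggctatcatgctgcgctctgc
Lamb3 A_55_P1967196: tgtatgaacacaaaacccAATAAAaatctt
Lamb3 A_55_P2929593: tgtacccatatgaacataacagaagaccct
Itgb1 A_66_P113059: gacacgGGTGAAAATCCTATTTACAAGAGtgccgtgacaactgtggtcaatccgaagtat
Itgb1 A_52_P69236: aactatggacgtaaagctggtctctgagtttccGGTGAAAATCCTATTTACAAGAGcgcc

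Lamb3 encodes the beta3 chain, which is found in hemidesmosomal laminin, and its 3 probes did not behave alike. The 3′ end probe A_55_P1967196 had log2 ratios of 0.38, 0.84 and 1.70 in wild-type and 0.12, 1.06, 0.42 and 0.99 in PRA transgenic glands. The intron-spanning probe A_51_P223656 gave 0.80, 0.71 and 1.61, then -0.12, 1.14, 0.71 and 1.06. On both probes wild-type replicate 3 was the highest array, PRA transgenic replicate 1 was the lowest, and the genotypes overlapped. Here and below, the log2 difference is the mean of the PRA transgenic arrays minus that of the wild-type arrays, fitted with limma. It was -0.32 (standard error 0.36; limma, adjusted p = 0.84) for the 3′ end probe and -0.35 (standard error 0.36; limma, adjusted p = 0.826) for the intron-spanning one. Neither passed the test. The 95% interval of the 3′ end probe ran from -1.18 to 0.53, and without wild-type replicate 3 its log2 difference was 0.039.

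The third Lamb3 probe, A_55_P2929593, separated the genotypes but lay at background. Its log2 ratios were 1.07, 1.21 and 1.05 in wild-type and -0.22, 0.09, 0.21 and -0.31 in PRA transgenic glands, so that all wild-type arrays lay above all PRA transgenic arrays. It was well above background on no array, in either channel, and was therefore not kept. Its log2 Cy5 signals were 3.15, 3.47 and 3.02, then 2.56, 2.38, 2.80 and 2.07, and its log2 Cy3 signals 2.08, 2.26 and 1.97, then 2.78, 2.29, 2.59 and 2.38. Cy5 was thus lower, and the Cy3 reference higher, on every PRA transgenic array than on every wild-type array. With no filter on dim probes limma gave it a log2 difference of -1.17 (standard error 0.16, adjusted p = 0.119).

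This probe also differs from the other Lamb3 probes in place. It ends 60.4 kb before the nearest of them, and the array's probes for G0s2 (chr1:195098925-195098984) and for the transcript AK076929 (chr1:195115960-195116019) lie on either side of it. RefSeq gives Lamb3 a length of 49526 bases on GRCm38.p6, shorter than the 63451 bases that the 3 probes span on mm9. The scanner files list 3 RefSeq transcript models for this probe, and 0 of them are among the 4 transcripts that the RefSeq table gives Lamb3. For each of the other probes, 2 of 2 listed transcripts are Lamb3's.

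**Figure D1:**
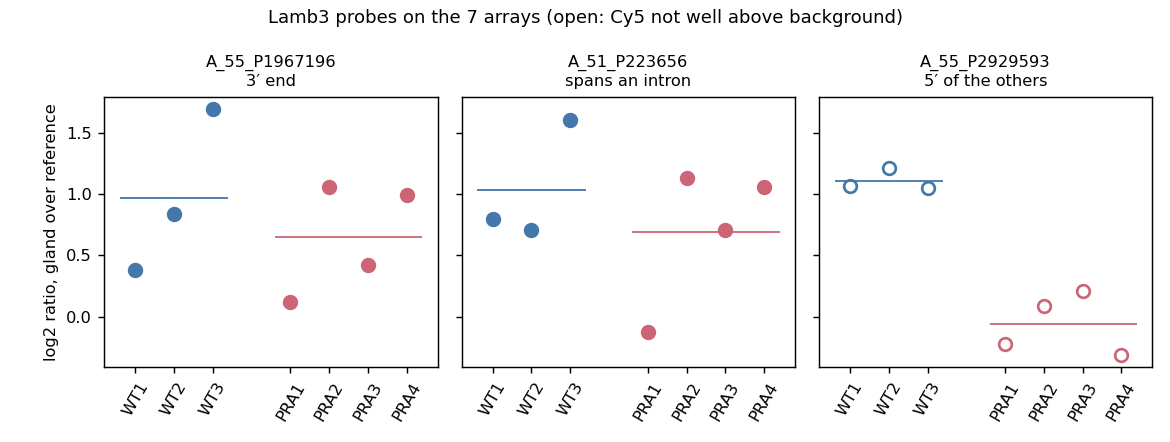
Log2 ratio of gland to reference signal (vertical axis) on the 3 wild-type (WT) and 4 PRA transgenic (PRA) arrays for the 3 Lamb3 probes; lines are genotype means, and open points mark arrays on which Cy5 was not well above background. The first 2 probes overlap between genotypes, and the third separates them with every point open.

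Lama3 encodes the alpha3 chain, the partner of beta3. It gave log2 ratios of 3.38, 3.00 and 3.06 in wild-type and 3.13, 2.75, 2.91 and 2.87 in PRA transgenic glands, and differed by -0.23 on the log2 scale (standard error 0.15; 95% interval -0.58 to 0.12). The genotypes overlapped. In Cy5 alone, each array scaled to its own 75th percentile, the log2 difference of Lama3 was 0.033.

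The receptors of hemidesmosomal laminin likewise overlapped. Itga3, whose chain pairs with beta1, had log2 ratios of -1.30, -1.50 and -1.24 in wild-type and -1.43, -1.06, -1.26 and -1.38 in PRA transgenic glands. Itga6 had 0.47, 0.99 and 1.55, then 0.90, 1.57, 1.07 and 0.75. Itgb4, the partner of alpha6 in hemidesmosomes, had 1.94, 1.89 and 2.32, then 1.51, 2.17, 1.99 and 2.03. In these 3 genes the spread among animals of 1 genotype was larger than the difference between the genotypes. Itgb1, which pairs with most laminin-binding and collagen-binding alpha chains, had 0.07, 0.60 and 0.10, then 0.34, -0.06, 0.02 and 0.22 at its brightest probe. The log2 differences were 0.06 (standard error 0.14) for Itga3, 0.07 (standard error 0.30) for Itga6, -0.13 (standard error 0.18) for Itgb1 and -0.13 (standard error 0.20) for Itgb4. The 95% intervals reached from -0.26 to 0.39 for Itga3 and from -0.62 to 0.77 for Itga6. All 4 changed sign in at least 1 of the alternative settings.

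Across the family, a probe was said to pass at a limma P under 0.05 and a change of at least 1.5-fold. Of the 77 kept probes, 2 (2.6%) passed as higher and 5 (6.49%) as lower in PRA transgenic glands, against 1.94% and 2.58% of the 34284 kept probes of the array. At an unadjusted P under 0.05 alone there were 8 (10.4%), against 9.02%. No member reached an adjusted p under 0.05 in limma with Benjamini-Hochberg adjustment over all kept probes, where the lowest was 0.317, and 4 of all kept probes did (0.0117%). The median log2 difference was -0.04 over the members and 0.02 over all kept probes, and the members ran from -1.73 to 1.17. Every wild-type array lay below every PRA transgenic array for 2 kept members (2.6%) and above for 3 (3.9%), against 5.42% and 4.53% of all kept probes. Those that passed as lower, and those where wild-type lay above, include an Itgax probe that the filter kept only through the wild-type arrays.

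The 25 kept laminin probes had 16 positive and 9 negative log2 differences with a median of 0.13, and the 49 kept integrin probes 20 and 29 with a median of -0.08. The 3 kept probes of other genes with integrin names were all negative. Over all kept probes 45.8% were negative. The brightest kept probe in Cy5, taken for each of the 38 genes that had one, passed as higher for 1 gene, Itga4, and as lower for 2 genes, Itga8 and Itgbl1. Over the brightest probes of all gene names 1.52% passed as higher and 2.54% as lower.

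**Figure D2:**
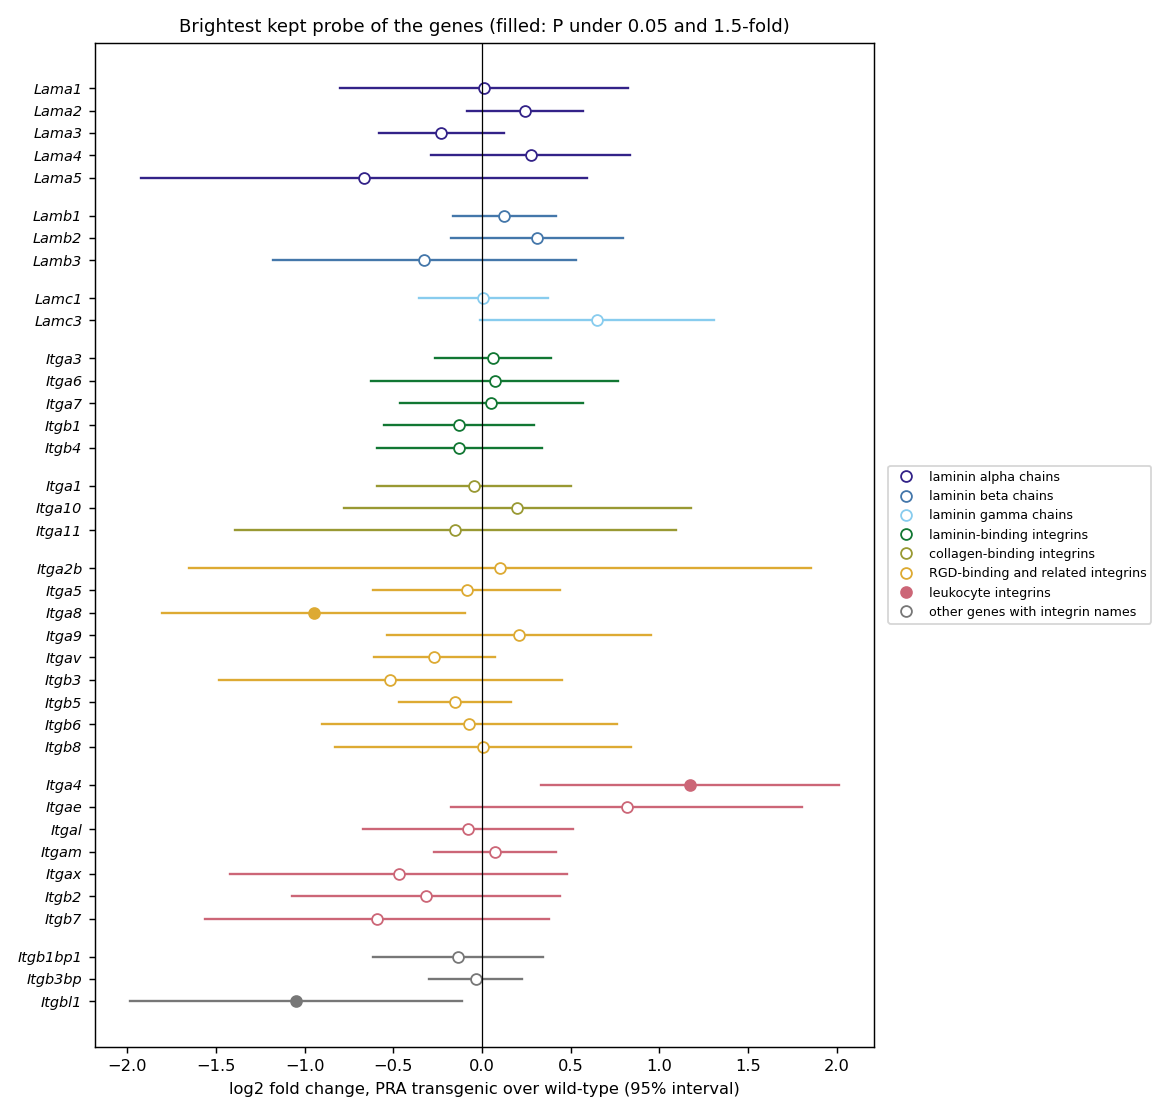
Log2 fold change of PRA transgenic over wild-type (horizontal axis) with its 95% interval from limma for the brightest kept probe of 37 genes, colored by role; filled points passed at P under 0.05 and 1.5-fold. Filled points are Itga4 at 1.17, Itga8 at -0.95 and Itgbl1 at -1.05, and the intervals of most genes cross 0.

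Among the beta chains, Lamb1, which is shared by laminins of vessels, stroma and many basement membranes, had a positive log2 difference at all 4 of its kept probes and under every setting run. Several settings keep the same log2 ratios and change only the filter or the test, so they could not change a direction. Probe A_55_P2630498, for a transcript other than a RefSeq mRNA, passed as higher, with log2 ratios of 1.49, 1.22 and 1.75 in wild-type and 2.16, 2.49, 2.34 and 2.53 in PRA transgenic glands. No PRA transgenic array reached down to the wild-type range. Its log2 difference of 0.89 (standard error 0.17; limma, adjusted p = 0.317) had the lowest P among the kept members, and in Cy5 alone the difference was 0.98. On no array was its reference signal well above background.

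The intron-spanning Lamb1 probe A_51_P244287, at chr12:32012684-32014030 of the plus strand, is shown because it also separated the genotypes while the reference was well above background on all 7 arrays.
Lamb1 A_51_P244287: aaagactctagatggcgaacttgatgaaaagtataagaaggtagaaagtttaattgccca
Its log2 ratios were 0.99, 0.63 and 0.59, then 1.00, 1.03, 1.12 and 1.08, with wild-type replicate 1 just below the lowest PRA transgenic array. The log2 difference of 0.32 (standard error 0.13; limma, adjusted p = 0.542), or 1.25-fold, fell short of 1.5-fold. The remaining kept probes gave 0.13 for the brightest, A_66_P101600 (limma, adjusted p = 0.809), and 0.61 for A_55_P2737049 (limma, adjusted p = 0.611), and both overlapped. Lamb2, the beta2 chain of mature muscle and vessel basement membranes, gave 0.31 (standard error 0.21).

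Among the brightest probes of the other laminin chains, none of which passed, that of Lamc3, the gamma3 chain, came nearest to the threshold. Its log2 ratios were 2.73, 1.63 and 2.13 in wild-type and 2.96, 3.04, 2.84 and 2.41 in PRA transgenic glands. Wild-type replicate 1 exceeded PRA transgenic replicate 4, so the genotypes overlapped, and the log2 difference was 0.65 (standard error 0.28; limma, adjusted p = 0.56). Lamc1, the gamma1 chain of most laminins, was even, with -0.02 to 0.14 over its 4 kept probes. A pair of these, A_51_P199354 and A_55_P1981381, shares 58 bases, and on no array did their log2 ratios differ by more than 0.07. Such closeness was not general. The dimmer Itgal probes A_55_P2184606 and A_55_P2935675 share 56 bases, yet their log2 ratios differed by up to 0.64, with log2 differences of 0.08 and -0.15. Lama1, the alpha1 chain, gave 0.01 (standard error 0.35).

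Lama2 and Lama4, the alpha chains around muscle and nerve fibers and around vessels and fat cells, each held 1 probe that passed as lower and others that pointed the opposite way. Lama4 probe A_52_P78714 had log2 ratios of 3.87, 4.36 and 2.83 in wild-type and 2.06, 2.65, 1.81 and 1.29 in PRA transgenic glands, with no overlap and a log2 difference of -1.73 (standard error 0.43; limma, adjusted p = 0.393). In Cy5 alone its difference was -0.08, and in the Cy3 reference alone it was 1.66. The other kept Lama4 probes gave 0.28, at the brightest, A_51_P212420, and 0.38, at A_55_P2733262.

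Lama2 probe A_55_P2717777 gave 3.08, 3.31 and 2.93, then 2.55, 2.28, 1.17 and 2.77, with no overlap, and PRA transgenic replicate 3 the lowest. On the ratio the difference was -0.91 (standard error 0.37; limma, adjusted p = 0.537), with 0.16 in Cy5 alone and 1.08 in Cy3 alone. The other 3 kept Lama2 probes gave 0.24, 0.46 and 0.54. Both passing probes had a dim reference, above background on no array, whereas at the brightest probes of Lama2 and Lama4 it was well above on all 7.

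Lama5, the alpha5 chain of epithelial and vessel basement membranes, has 1 probe, and 1 animal set its difference. The log2 ratios were 1.40, -0.69 and -0.89 in wild-type and -0.50, -0.52, -0.84 and -1.02 in PRA transgenic glands. Wild-type replicate 1 stood above the other 6 arrays, which overlapped, and the log2 difference of -0.66 (standard error 0.53) was 0.07 without it.

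At the brightest probes, the integrin Itga4 rose and the integrin Itga8 fell by the unadjusted threshold, and so did Itgbl1, which has only an integrin-like name and protein. Itga4 encodes the alpha4 chain, with which lymphocytes and monocytes bind vascular cell adhesion molecule 1 and fibronectin. Its probe A_55_P2040026 had log2 ratios of -2.66, -3.01 and -1.62 in wild-type and -1.31, -1.67, -1.30 and -0.77 in PRA transgenic glands, overlapping only in that wild-type replicate 3 exceeded PRA transgenic replicate 2. It differed by 1.17 (standard error 0.36; limma, adjusted p = 0.433), or 2.25-fold, and passed in all 18 of 18 alternative settings. Several of these settings reuse the same log2 ratios. In Cy5 alone the log2 difference was 1.24 and in Cy3 alone 0.08. Of the other 5 Itga4 probes, 4 were well above background on no array, and the kept one, A_55_P2714996, had 0.22 (standard error 0.34). The difference of A_55_P2714996 was negative in Cy5 alone and with normexp and loess, and its lowest value over the alternative settings was -0.44.

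Itga8, whose chain pairs with beta1 on smooth muscle and other contractile stromal cells and binds RGD-bearing proteins such as nephronectin, had log2 ratios of 6.95, 7.02 and 7.01 in wild-type and 5.45, 6.21, 5.55 and 6.98 in PRA transgenic glands at A_51_P309920. PRA transgenic replicate 4 lay within the wild-type range and the other 3 below it. The fitted difference was -0.95 (standard error 0.36; limma, adjusted p = 0.511), with -0.34 in Cy5 alone and 0.62 in Cy3 alone, a channel too dim here to rise well above background on any array. The second Itga8 probe gave 2.97, 3.23 and 2.72, then 1.80, 2.32, 1.33 and 3.21, again with PRA transgenic replicate 4 near the wild-type arrays, and a log2 difference of -0.81 (standard error 0.42). A_51_P309920 kept its direction in 17 of 17 alternative settings, but several of them reuse the same log2 ratios and could not change it. The probe passed in 7 of the 17, not by the methods' test.

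Itgbl1 encodes a secreted protein with integrin-like repeats and forms no receptor. It had log2 ratios of 4.07, 5.20 and 4.42 in wild-type and 3.75, 3.01, 3.01 and 4.29 in PRA transgenic glands, where PRA transgenic replicate 4 exceeded wild-type replicate 1. This was a difference of -1.05 (standard error 0.40; limma, adjusted p = 0.507), with -0.63 in Cy5 alone and 0.42 in Cy3 alone. It kept its direction in 17 of 17 alternative settings, several of which, as for Itga8, could not change it. Itgbl1 passed in 8 of the 17, not by the methods' test.

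**Figure D3:**
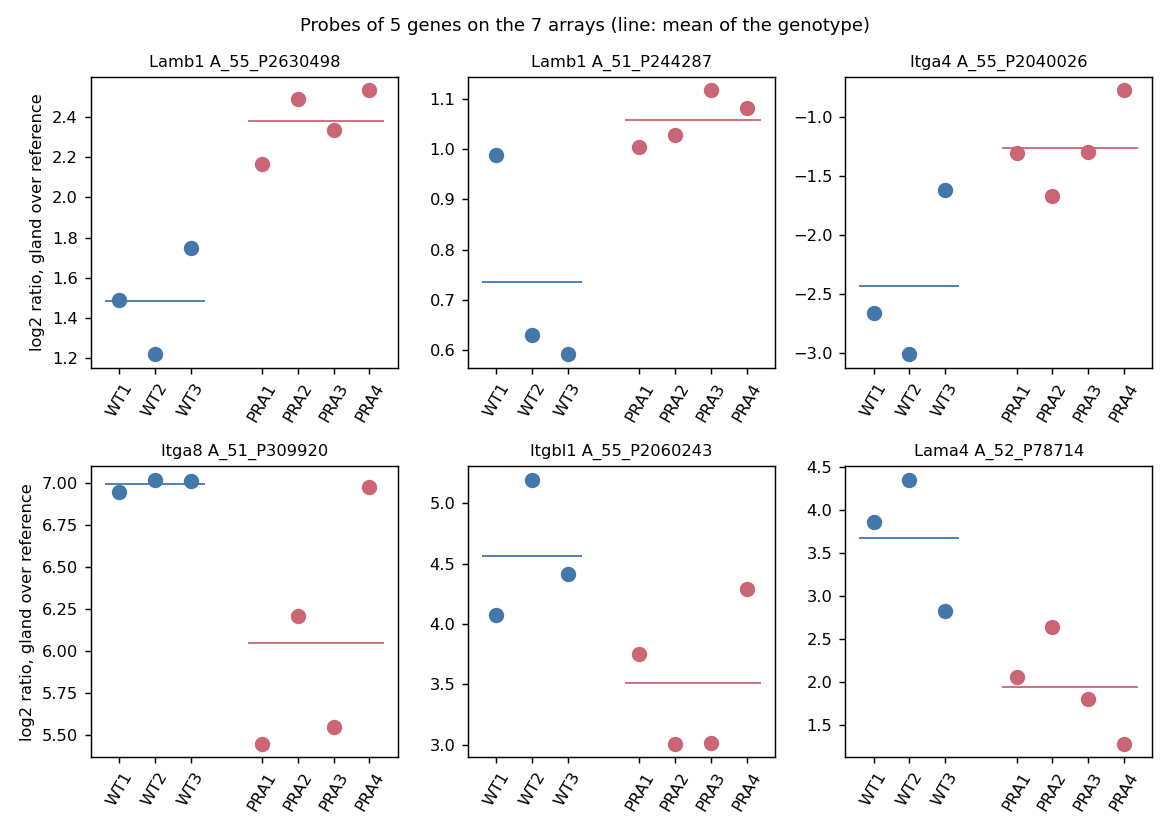
Log2 ratio of gland to reference signal (vertical axis, scaled for each panel) on the 3 wild-type (WT) and 4 PRA transgenic (PRA) arrays for probes of Lamb1, Itga4, Itga8, Itgbl1 and Lama4; lines are genotype means. Both Lamb1 probes and the Lama4 probe separate the genotypes, and PRA transgenic replicate 4 lies among or near the wild-type arrays for Itga8 and Itgbl1.

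The remaining integrins of the groups that bind collagen or RGD sequences did not pass. At their brightest probes the log2 differences were -0.05 for Itga1, 0.20 for Itga10 and -0.15 for Itga11, collagen receptors of stromal cells. The chains that bind RGD-bearing or related ligands gave -0.09 for Itga5, the fibronectin receptor, -0.27 for Itgav, -0.52 for Itgb3, -0.15 for Itgb5, -0.07 for Itgb6, 0.01 for Itgb8, 0.21 for Itga9 and 0.10 for Itga2b, the platelet chain. Itga11 stood high on 1 array, PRA transgenic replicate 4 at 4.15, against 2.05 to 2.62 on the other PRA transgenic and 2.41 to 3.45 on the wild-type arrays. Itgb3 was also highest there, at 1.28, against -0.10 to 0.01 on the other PRA transgenic arrays, and 1.08, 1.16 and 0.15 in wild-type. The fibroblast marker list (Col1a1, Dcn, Pdgfra and others, 7 of 7 kept) averaged 2.42 on PRA transgenic replicate 4, against 1.92 to 1.95 on the other 3 and 1.87 to 2.40 in wild-type. Its part in these values was not tested.

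Among the leukocyte integrins, Itgax, a chain of dendritic cells and macrophages, passed as lower at probe A_52_P424887, with log2 ratios of 1.03, 1.08 and 1.40 in wild-type and 0.13, 0.21, 0.64 and 0.71 in PRA transgenic glands. The genotypes did not overlap and differed by -0.75 (standard error 0.19; limma, adjusted p = 0.405). Cy5 was well above background on all 3 wild-type and no PRA transgenic array. The filter thus kept this probe only through the genotype where it was higher, and its passing as lower is not independent of the filter. With the dim group held at the lowest signal counted as well above background, the gland signal was at least 1.02-fold higher in wild-type. The brighter Itgax probe, A_51_P303424, overlapped, with -0.47 (standard error 0.40). The brightest probes gave 0.82 for Itgae (standard error 0.42), the chain of lymphocytes within epithelia, -0.08 for Itgal, 0.07 for Itgam, -0.32 for Itgb2 and -0.59 for Itgb7. For Itgae the difference was 0.17 in Cy5 alone and -0.64 in Cy3 alone, and its second kept probe gave -0.26 on the ratio.

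**Figure D4:**
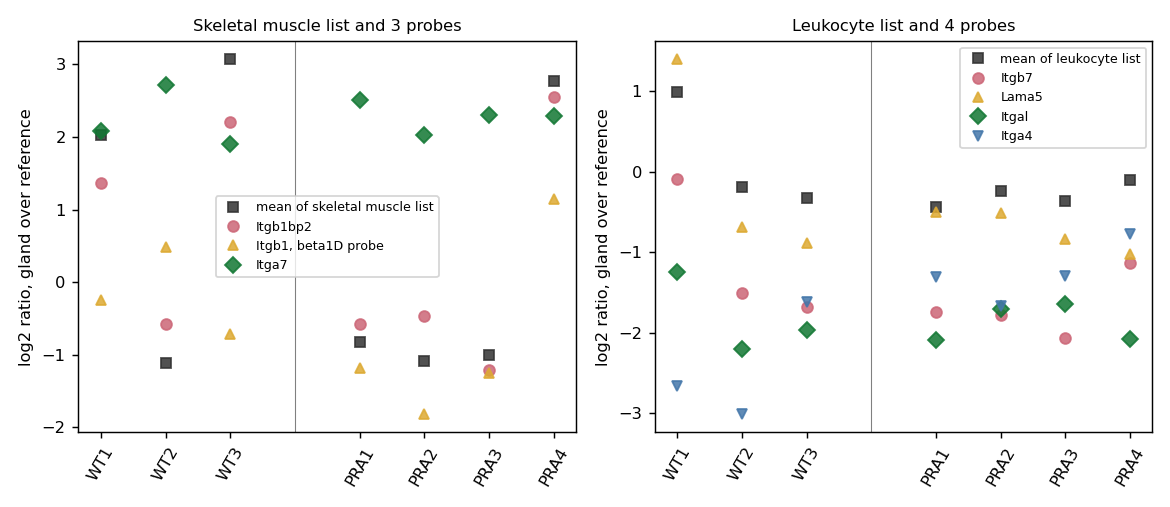
Log2 ratio of gland to reference signal (vertical axis) by array for the mean of the skeletal muscle list with Itgb1bp2, the Itgb1 probe for beta1D and Itga7 (left), and for the mean of the leukocyte list with Itgb7, Lama5, Itgal and Itga4 (right). Each symbol is to be compared across arrays, not with other symbols. Itgb1bp2 is high on the 3 arrays with a high mean of the muscle list. Itgb7, Lama5 and the brightest Itgal probe are highest on wild-type replicate 1, and Itga4 is not.

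Itgb7, which joins alpha4 or alpha E on gut-homing and intraepithelial lymphocytes, had log2 ratios of -0.09, -1.50 and -1.68 in wild-type and -1.75, -1.78, -2.06 and -1.14 in PRA transgenic glands. At its brightest probe Itgal, the lymphocyte alpha L chain, was also highest on wild-type replicate 1. It stood at -1.25 there, against -2.20 to -1.65 on the other 6 arrays. The dimmer Itgal probes were highest on PRA transgenic replicate 1 and on wild-type replicate 3. Other leukocyte integrins also peaked elsewhere, Itgb2 and Itgam on PRA transgenic replicate 4, Itgax on its replicate 2 and Itgae on its replicate 1. Without wild-type replicate 1 the log2 difference of Itgb7 was -0.09. The leukocyte list (Ptprc, Cd3e, Cd68 and others, 14 of 15 kept) averaged 0.99 on wild-type replicate 1, then -0.19 and -0.32, and -0.44 to -0.11 on the PRA transgenic arrays. Its genes did not all follow that mean. Ptprc, Cd68, Adgre1, Csf1r and Lyz2 were highest on PRA transgenic replicate 4, and the other kept genes of the list on wild-type replicate 1. Lama5 was also highest on wild-type replicate 1. The part of leukocytes in these values was not tested. Itga4 was second lowest on wild-type replicate 1.

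Genes of muscle integrins were followed because muscle markers differed between animals of both genotypes. The skeletal muscle list (Acta1, Myh4, Tnnt3 and others, 9 of 10 kept) averaged 2.03, -1.11 and 3.07 in wild-type glands, -1.09 to -0.82 in PRA transgenic replicates 1 to 3 and 2.77 in replicate 4. Myh4 did not follow that mean, at -0.04, -0.20 and 0.21, then 0.47, 0.05, 0.47 and -0.05. Itgb1bp2, which encodes melusin, a muscle protein that binds the beta1 tail, gave 1.36, -0.58 and 2.21, then -0.57, -0.47, -1.21 and 2.55, and its Cy5 signal was well above background on the 3 arrays where the muscle list was high and on no other. The Itgb1 probe for the beta1D form gave -0.25, 0.48 and -0.71, then -1.18, -1.82, -1.24 and 1.14, with Cy5 well above background on wild-type replicates 1 and 2 and on no other array. The other intron-spanning Itgb1 probe shown above, A_66_P113059, ran from -0.82 to -0.34 over the 7 arrays. Itga7, the laminin receptor chain of muscle, which smooth muscle also uses, was even, at 2.08, 2.71 and 1.90, then 2.51, 2.03, 2.30 and 2.29, with a log2 difference of 0.05 (standard error 0.22).

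The other genes with integrin names, Itgb1bp1, a regulator that binds the beta1 tail, and Itgb3bp, a centromere protein in spite of its name, gave -0.13 and -0.04. Of the proteins that share the basement membrane with laminin or bind it, 25 of 26 genes were kept and 0 passed. Only Hspg2, which encodes perlecan, had an unadjusted P under 0.05, with -0.55 (standard error 0.23; limma, adjusted p = 0.542), and it fell short of 1.5-fold. The list had 11 positive and 14 negative values with a median of -0.07. Of the integrin adhesion machinery inside the cell (talins, kindlins, paxillin, focal adhesion kinase and others), 26 of 26 genes were kept and 0 passed, with 13 positive and 13 negative values and a median of -0.01. Of all kept probes 4.52% passed in either direction. In the adhesion machinery list 2 of 26 genes were higher without overlap, Parva and Rsu1, and 1 was lower, Lims1. Such separation held for 5.42% of all kept probes as higher and 4.53% as lower.

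Basal epithelial markers, 8 of 8 kept, averaged 2.62 to 3.03 in wild-type and 2.91 to 3.07 in PRA transgenic glands, and luminal markers, 10 of 10 kept, 3.09 to 3.60 and 3.04 to 3.60. These epithelial lists, of the cells that make hemidesmosomal laminin, overlapped between genotypes and none of their genes passed. Cldn3 in the luminal list had an unadjusted P under 0.05, with 0.41 (standard error 0.11; limma, adjusted p = 0.412), and it and Krt17 in the basal list, with 0.32 (standard error 0.15), were higher on every PRA transgenic than on every wild-type array. In the endothelial list 1 of 7 genes passed, Emcn as higher with a log2 difference of 0.78. Col3a1 in the fibroblast list had an unadjusted P under 0.05, with -0.53 (standard error 0.17; limma, adjusted p = 0.454). It fell short of 1.5-fold and was lower on every PRA transgenic than on every wild-type array. Plin1 in the white adipocyte list, with 0.32 (standard error 0.14), was higher on every PRA transgenic array. White adipocyte markers averaged 5.65 to 5.98 and 5.67 to 6.34, and Schwann cell markers 1.77 to 2.06 and 1.68 to 2.34.

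The probes of a gene often did not point the same way. Of 23 genes with several kept probes, 12 had log2 differences of both signs, the median range within a gene was 0.31, and the widest was 2.11, for Lama4. The 64 probes for RefSeq mRNAs gave 54 kept, with 1 higher and 2 lower, where 1.57% and 2.41% of all kept probes of that kind passed. The 36 for other transcripts gave 23 kept, with 1 higher and 3 lower, against 2.6% and 2.89%.

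The reference channel differed in the same comparison. For the 45 kept members with Cy3 well above background on all 7 arrays, the median log2 difference was -0.02 on the ratio, -0.03 in Cy5 alone and 0.00 in Cy3 alone, and 1 passed as higher and 0 as lower, against 0.861% and 1.06% of all kept probes with a reference that bright. For the 21 with Cy3 well above background on no array, the medians were -0.26, 0.05 and 0.61, and 1 passed as higher and 4 as lower. Over all kept probes with a reference signal that dim, 3652 in number, the medians were -0.21, -0.07 and 0.18, with 3.42% higher and 13% lower. In Cy3 alone, which holds the same RNA on every array, 8 of the 77 kept members passed as higher and 1 as lower, against 1.95% and 1.14% of all kept probes. These members were all among the 21 with a dim reference. Of the 3652 kept probes with a reference that dim, 579 passed as higher and 149 as lower in Cy3 alone.

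**Figure D5:**
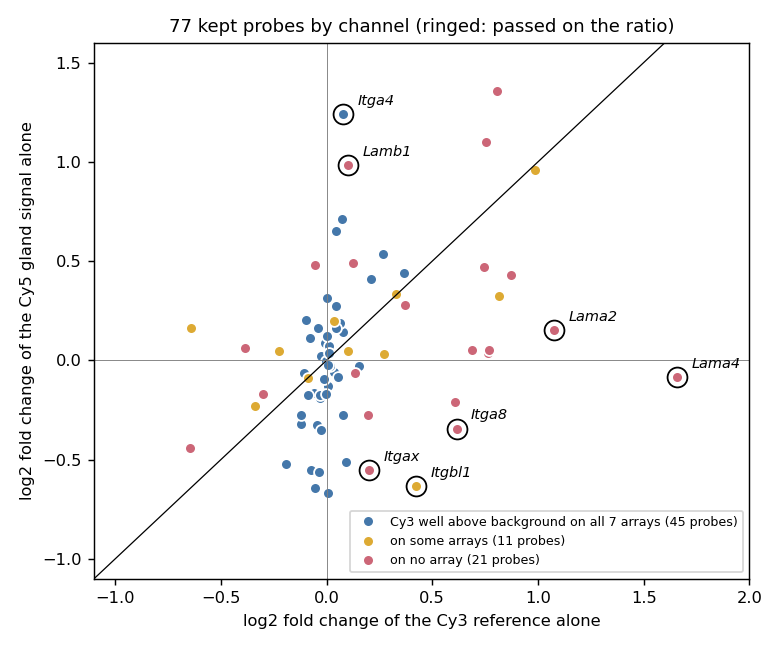
Log2 fold change of PRA transgenic over wild-type arrays in the Cy3 reference alone (horizontal axis) and the Cy5 gland signal alone (vertical axis) for the 77 kept probes, colored by how often the reference was well above background; ringed probes passed on the ratio, and the diagonal is an equal change in both channels. Itga4 and Lamb1 lie high with the reference near 0, whereas Lama2 and Lama4 lie near 0 in Cy5 with the reference at 1.08 and 1.66.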

How the data were processed

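RNA of 7 mammary glands, 1 array each, was compared with a common reference. The authors deposited Agilent Feature Extraction scanner output (software 11.5.1.1 per the file headers, 12.0 per the submitters' notes), in which processed intensity values had been background-subtracted, detrended and dye-normalized, and dim signals replaced by surrogates. A table of log2 ratios, likewise deposited by the authors, was found to be centered on the 7-array median of each probe and served as an alternative. Log2 ratios of Cy5 (gland) to Cy3 were computed from the intensities after control and outlier spots were dropped, with repeated spots averaged. The filter left 34284 of 56605 probes, those whose Cy5 was well above background throughout 1 genotype or both. These were fitted with limma 3.58.1 (lmFit, eBayes; R 4.3.3), and p-values were adjusted over all of them by Benjamini-Hochberg. A 1.5-fold change with an unadjusted P under 0.05 follows the study's wider list. Dyes were not swapped.

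Genes of the family are named by their brightest kept probe, and 1 gene is counted but not reported here. Per-array values are given for all Lamb3 probes, for probes that passed and for Lama3 and the receptors of the Lamb3 chain, and other per-array values were chosen after they were seen. Members and gene lists (luminal and basal epithelium, muscle, leukocytes, endothelium, fibroblasts, adipocytes, Schwann cells, basement membrane partners, adhesion machinery) were chosen with earlier results of these data known. Fbln1 is in both the fibroblast and the basement membrane list. Older symbols were matched through a RefSeq table of GRCm38.p6, which was used for names and gene length. Alternatives were normexp with offset 50 and loess, the series table, no or a stricter filter, Cy5 scaled to the 75th percentile of each array, quantile normalization, a replicate block, array weights, an intensity trend, the unpaired test of the methods (added later also with no filter), each array left out and the median over probes. The fit was tested on simulated data. Each array was taken as a separate animal from the study's count of animals, and the labels give only genotype and replicate number.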

Additional observations from a re-analysis of the deposited data

Results flagged for a closer look

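Among the 4 PRA transgenic arrays, the mean of the skeletal muscle list had 1 array, replicate 4, far from the other 3 (gap over range 0.931), and so did the mean of the fibroblast list (0.945), again replicate 4. In all, 33 groups of 4 were examined, and chance alone would place 1.65 of them past the limit, against 2 found.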

How the results depend on the processing

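The main comparison gave 2 kept members higher, 5 lower and 0 with an adjusted p under 0.05 (limma, 8 at an unadjusted P under 0.05). With normexp and loess 1 was higher and 0 lower (0.324% and 0.633% of all probes tested), in Cy5 alone 6 and 1 (1.41% and 2%), after quantile normalization 6 and 3 (2.83% and 2.21%). With no filter 9 of 100 were lower (3.77% of all), with both channels well above background 0 of 43 (0.994%), by the methods' test 2 (1.64%). With 1 array left out, 2 to 8 were lower (8 without PRA transgenic replicate 4, 3 without wild-type replicate 2, and 2 without wild-type replicate 3 or PRA transgenic replicate 3). Over these, 2.18 to 3.51% of all probes were lower. With the replicate number as a block 11 were lower (3.76% of all). PRA transgenic replicate 4 has no partner in that block, so its log2 differences equal those with that array left out. The replicate numbers did not pair the arrays, since the correlations of same-numbered arrays were 0.0997, -0.297 and 0.0362. The causes of these shifts were not tested, except that stricter filters test fewer probes.

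Some log2 differences changed sign. After quantile normalization Itga3 was -0.036 and Itgb4 0.043. In Cy5 alone Lama2 A_55_P2717777 was 0.155 and Lama3 0.033. As the median over probes Itga6 was -0.093 and Itgb1 0.0022. With 1 array left out, Itga3 ran from -0.013 to 0.118, Itga6 from -0.195 to 0.344, Itgb1 from -0.223 to 0.041, Itgb4 from -0.208 to 0.012 and Lamb3 from -0.621 to 0.039. Of the other values of named probes under the alternatives, 34 no longer passed and 210 kept their direction and call. Some of the 210 come from settings that reuse the same log2 ratios. A block for the slide could not be run on 1 slide.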
